A study of Mus musculus with 2 samples.

Results

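The Hox genes were examined in C2C12 cells, an established mouse myoblast line, after stable knockdown of Mybbp1a. The set was taken by name: every gene probe on the array whose gene name is Hoxa, Hoxb, Hoxc or Hoxd followed by a number. This gave 50 probes for 38 Hox genes, out of 41174 probes for 27573 named genes. The mouse reference lists 39 Hox genes, and Hoxc11 was the one without a probe under this rule. Of the 50 probes, 31 probes for 26 genes stood clear of background on each array, in 1 channel or both, and were tested, among 27006 tested probes in all.

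The study compared C2C12 cells expressing a short hairpin RNA against Mybbp1a with C2C12 cells expressing a control hairpin. Both were mixed stable clones grown below confluence in medium with serum, and the labels give the line's origin as adult leg muscle of strain C3H. The data were 2 two-colour arrays described as biological replicates, with the knockdown always in Cy5 and the control always in Cy3. No dyes were swapped, so a dye bias that normalization leaves in place cannot be told apart from the knockdown. Whether the replicates stem from separate infections, clone pools or cultures is not stated in the labels, and p-values therefore measure the spread of these arrays, possibly a technical one. In a mixture of clones, fewer cells that express a gene and less RNA of it per cell cannot be told apart.

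Hox genes encode transcription factors that bind DNA through a homeodomain, and they lie in 4 clusters on different chromosomes. Within a cluster, the gene number runs from anterior to posterior: genes at the low-numbered end are active towards the head and those at the high-numbered end towards the tail and the tips of the limbs. Genes of the same number in different clusters are paralogs. Cells of the adult body often keep a combination of active Hox genes that reflects where in the embryo they came from, and Polycomb and Trithorax complexes hold the clusters in their silent or active state.

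On mouse build mm8, the coordinates used by the array design, the Hox probes lie on chromosome 6 (Hoxa, minus strand) and span chr11:96012144-96183286 (Hoxb), chr15:102756397-102864186 (Hoxc) and chr2:74470787-74565841 (Hoxd). The array annotation gives each probe a position and a transcript accession but no exon. All probes are 60 bases long. Hox genes resemble each other most in the homeobox, the stretch that encodes the homeodomain, and a probe placed there can resemble a probe for a paralog. A run of at least 12 bases was shared with another Hox probe by 4 of the 50 probes, 1 each for Hoxa9, Hoxb3, Hoxc12 and Hoxd10. Their values may hold signal from a paralog, which was not tested.

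The pattern of the Hoxb cluster described further on rests on a few probes outside these shared runs. Their first 30 bases are given to identify them, in the order of the cluster from Hoxb3 to Hoxb9. Where a gene has a second probe that read differently, that probe is shown too.
Hoxb3 (A_52_P312467): tattgtattctagacaagagctgtagattt
Hoxb5 (A_51_P436342): taggccccacaaggcctagtctggaagcgt
Hoxb6 (A_51_P232207): tcgagtctcatttcgtccatgtcccccgtg
Hoxb6 (A_52_P648750): ggtgctatttgacaattcctgcctctgcca
Hoxb7 (A_52_P194971): gttgctagtaaggtctttgtaaaatcttgc
Hoxb9 (A_52_P98462): tcctatcctcatttgacagaatgtaacttt
Hoxb9 (A_52_P973575): gcttgtgttttgtgatttctttggcagtga
The other Hoxb3 probe, A_51_P460643, is one of the 4 that share bases with a paralog's probe.

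As a check of the labels, Mybbp1a (A_51_P332627) was lower in knockdown cells, with log2 ratios of knockdown over control of -1.64 (array 1) and -1.91 (array 2). The mean of -1.78 ± 0.19 (SD, n = 2) corresponds to a 3.42-fold lower level, at a limma adjusted p of 0.137. The median spot signal was 329 in the knockdown channel and 159 in the control channel on array 1, and 449 and 184 on array 2. Of all probes, 65.3% in the knockdown channel and 64.7% in the control channel were well above background on array 1, and 79.4% and 72.6% on array 2. Since each array lay on its own slide, a slide effect and a replicate effect cannot be told apart. Myoblast markers were tested for 9 of 9 genes, and markers of adipocytes for 4 of 7, of bone and cartilage for 6 of 8, of endothelium for 3 of 7, of leukocytes for 4 of 7 and of neural cells for 5 of 7. On both arrays, 40.6% of all genes, each by its brightest tested probe, were above 0 and 29.4% below 0. Among the markers, counted in the same way, 5 of myoblasts were above 0 and 2 below 0. The counts were 1 and 0 for markers of adipocytes, 3 and 0 of bone and cartilage, 3 and 0 of endothelium, 3 and 0 of leukocytes and 2 and 2 of neural cells. Their log2 ratios on arrays 1 and 2 included 0.79 and 0.51 for the muscle regulator Myog, 0.21 and 0.59 for Myf5, 1.92 and 1.63 for the bone protein gene Bglap, and 0.56 and 1.52 for the cartilage collagen Col2a1. Among endothelial markers Cdh5 had 1.03 and 0.68 and Tek 0.13 and 0.22, among neural markers Nefl had -0.81 and -0.49 and Mbp 0.87 and 0.39, among adipocyte markers Cebpa had 0.46 and 0.70 and Fabp4 0.04 and -0.21, and among leukocyte markers Csf1r had 0.27 and 0.29. None was called in limma, and their part in the Hox values was not tested.

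Every Hoxc gene with a probe gave a signal, while few Hoxd genes did. All 9 Hoxc probes, for 8 genes, were well above background in both channels of both arrays. Of the 14 Hoxa probes, 11 were above background in both channels on array 1, and on array 2 it was 13 in the knockdown channel and 12 in the control channel. Of the 15 Hoxb probes, 9 were above background in both channels on array 1, and 11 in the knockdown channel and 10 in the control channel on array 2. Of the 12 Hoxd probes, 2 were above background in both channels on array 1, and 7 in the knockdown channel and 2 in the control channel on array 2. Over all 4 clusters, 31 probes were above background in every channel, 10 in none and 9 in some.

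The additional detections on array 2 were mostly in the knockdown channel, with 40 Hox probes above background there against 33 in the control channel. On array 1 it was 31 in each. Expressed as shares of the Hox probes, 62% of knockdown and 62% of control readings on array 1, and 80% and 66% on array 2, were above background. Over all probes, too, the share above background was larger on array 2, and larger there in the knockdown channel than in the control channel. The tested share was 62% of Hox probes and 65.6% of all probes.

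**Figure D1:**
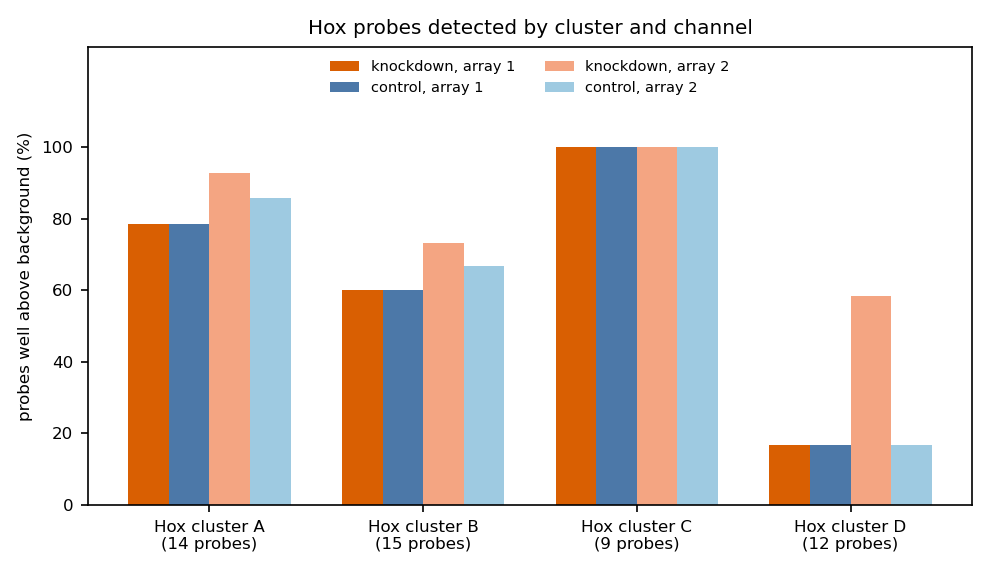
Share of Hox probes well above background (vertical axis, percent of probes) in each cluster, with bars for the knockdown and the control channel of each array. All 9 Hoxc probes were above background in every channel, while Hoxd probes reached 7 of 12 in the knockdown channel of array 2 and 2 of 12 in each of the other channels.

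By position, 9 of 17 probes of genes numbered 1 to 4 were tested, 10 of 13 of genes 5 to 8 and 12 of 20 of genes 9 to 13. The 19 probes that were not tested lie in the Hoxa, Hoxb and Hoxd clusters. In Hoxa they were both probes of Hoxa13, a gene of digits and genital tubercle, and 1 of 2 probes of Hoxa4. In Hoxb they were Hoxb1, known for its role in the hindbrain, both probes of Hoxb2 and of Hoxb8, and Hoxb13, the most posterior gene of its cluster. One of the Hoxb2 probes (A_51_P257789) is placed on the strand opposite to the other Hoxb probes. In Hoxd they were Hoxd1, Hoxd3 with both probes, Hoxd4, Hoxd8, 1 of 2 probes of Hoxd9, Hoxd10, Hoxd11 and Hoxd13 with both probes. Hoxd10 to Hoxd13 pattern the distal limb in the embryo. On array 2 Hoxd4, Hoxd11 and 1 probe each of Hoxd3, Hoxd9 and Hoxd13 were above background in the knockdown channel and not in the control channel. For Hoxd11 the signal there was 137 in knockdown cells and 84.8 in control cells, with a log2 ratio of 0.14, so that a flag in 1 channel did not go with a large difference.

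Hoxb1 was read by 10 spots of 1 probe, which shows how much dim spots of the same sequence differ. The SD of the log2 ratio over its spots was 0.19 on array 1, where 8 spots were used, and 0.11 on array 2. Its mean signal before background correction was 78.5 and 106 in knockdown cells on arrays 1 and 2, against 71.1 and 79.7 in control cells. Of the untested probes, Hoxb13 and Hoxa4 (A_52_P638382) were above background in both channels of array 2 and in neither of array 1. Hoxb13 read 112 and 130.4 in knockdown cells, against 77.9 and 163 in control cells, and its log2 ratios were 0.05 and -1.24, whereas those of Hoxa4 were 0.13 and 0.03.

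No Hox probe passed the test. In limma with Benjamini-Hochberg adjustment over all 27006 tested probes, 0 of 31 Hox probes were higher and 0 lower at an adjusted p of 0.05, against 0% higher and 0% lower of all tested probes, and the lowest adjusted p of the whole fit was 0.137. At an unadjusted p under 0.05, 3 Hox probes (9.68%) were higher and 0 lower in knockdown cells, against 12.7% higher and 9.09% lower of all tested probes. With 2 arrays the fit has 1 residual degree of freedom per probe, and the smallest p of an exact sign-flip test over 2 arrays is 0.5. With median centring in place of loess, 4 Hox probes (12.9%) were higher at an adjusted p of 0.05, against 16.1% of all tested probes. They were Hoxa10, Hoxb7, Hoxc6 and Hoxc10 (A_51_P375754), and the median of all tested probes stood at 0.19 under that setting.

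The directions of the Hox probes were counted beside those of all tested probes, without a test. On arrays 1 and 2 their median log2 ratios were 0.07 and 0.04, against 0.02 and 0.01 for all tested probes. A ratio of at least 2-fold that kept its direction on both arrays was found for 0 Hox probes, against 0.511% higher and 0.037% lower of all tested probes. On both arrays 15 Hox probes (48.4%) were above 0 and 4 (12.9%) below 0, against 37.9% and 32.1% of all tested probes. The other 12 had opposite signs, 38.7% against 30%.

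What set the Hox probes apart in description was their spread on array 2, and this lay in the Hoxb cluster. The SD of the log2 ratio across Hox probes was 0.211 on array 1 and 0.634 on array 2, against 0.295 and 0.406 across all tested probes. By cluster, the SD on array 2 was 0.805 for Hoxb. It was below that of all tested probes for Hoxa (0.230), Hoxc (0.313) and the 2 Hoxd probes (0.035). On array 2, 3 of 31 Hox probes (9.68%) were at least 2-fold lower in knockdown cells, against 0.696% of all tested probes, and none was at least 2-fold higher, against 2.16%. On array 1, none was 2-fold apart in either direction, against 1.15% higher and 0.1% lower. The arrays differed by at least 1 on the log2 scale for 4 Hox probes (12.9%), against 1.9% of all tested probes. All 4 were Hoxb probes.

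**Figure D2:**
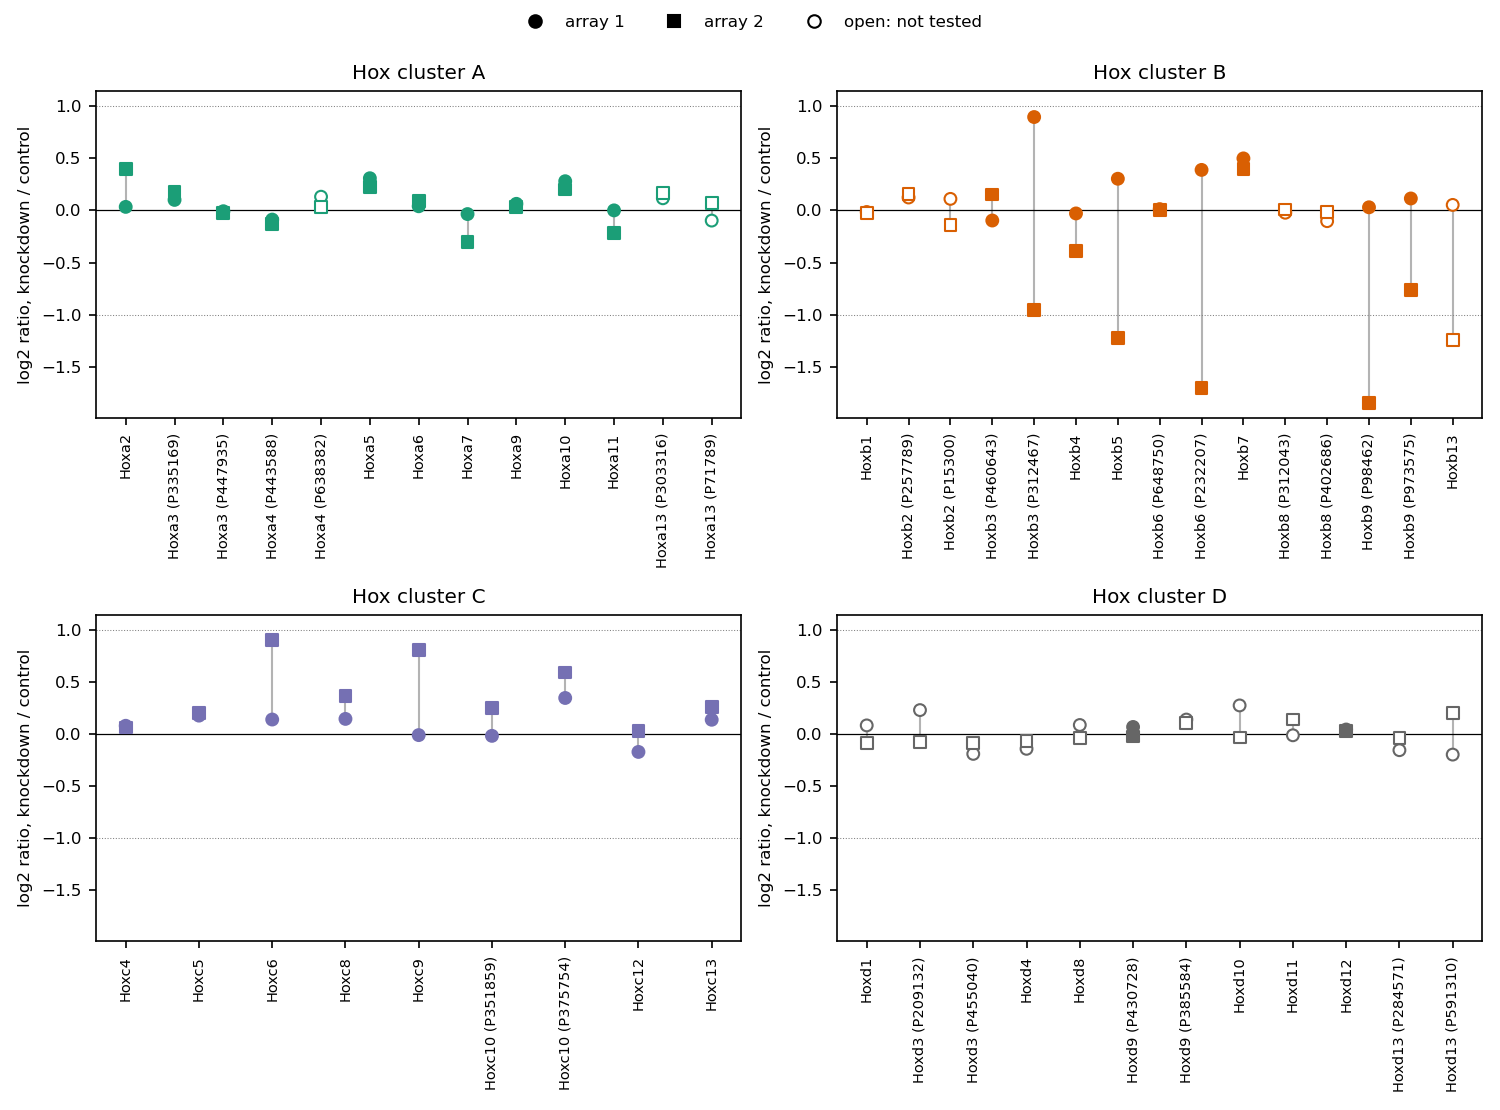
Log2 ratio of knockdown over control (vertical axis) for the Hox probes in cluster order, in a panel per cluster. Circles are array 1, squares array 2, open symbols are probes that were not tested, and dotted lines mark a 2-fold difference. The Hoxa, Hoxc and Hoxd points of tested probes lie between the dotted lines, and the Hoxc squares all lie above 0. The squares of Hoxb5, of one Hoxb6 probe and of one Hoxb9 probe lie below the lower dotted line, as does the open square of Hoxb13.

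By cluster, the median of the tested probes was 0.04 on array 1 and 0.04 on array 2 for 11 Hoxa probes, and 0.06 and 0.00 for 2 Hoxd probes. For 9 Hoxb probes it was 0.11 on array 1 and -0.76 on array 2. For 9 Hoxc probes it was 0.14 and 0.26. With the clusters pooled, position along the clusters separated the probes less. The medians were 0.03 and -0.02 for the 9 probes of genes numbered 1 to 4, 0.16 and 0.15 for the 10 of genes 5 to 8, and 0.05 and 0.03 for the 12 of genes 9 to 13. Within Hoxb the array 2 medians in that order were -0.39 (3 probes), -0.61 (4 probes) and -1.31 (2 probes). On array 1 those of Hoxb were -0.03, 0.35 and 0.07. Within Hoxa they were -0.02, 0.09 and 0.04 on array 2, and within Hoxc 0.06 (1 probe), 0.37 and 0.26. Differences between clusters or positions were not tested, because the probes share the same 2 arrays.

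In the Hoxb cluster, several middle and posterior genes read lower in knockdown cells on array 2 while none did so on array 1. Hoxb9 is a posterior member that helps pattern the thoracic ribs. Its probe A_52_P98462 (chr11:96091841-96091900) had a signal before background correction of 199 and 349.7 in knockdown cells on arrays 1 and 2, against 115 and 507 in control cells. Raw readings are not balanced between the dyes, since Cy5 was the brighter over all spots. After normalization, knockdown and control were about level on array 1 (7.46 and 7.43 on the log2 scale) and knockdown was below control on array 2 (7.74 and 9.58). The log2 ratios were 0.03 and -1.85, with a mean of -0.91 ± 1.33 (SD, n = 2), a standard error of 0.49 and a limma adjusted p of 0.360. Standard errors here and below are the moderated ones of the limma fit. They draw the spread of a probe towards that of all tested probes, so they do not follow from the SD alone. On array 2, 40 of the 27006 tested probes had a lower ratio.

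The second Hoxb9 probe, A_52_P973575, gave the same direction with a smaller size. It read 197 and 478 in knockdown cells, against 104 and 329 in control cells. The corresponding log2 ratios were 0.11 and -0.76 (limma adjusted p 0.485). Both Hoxb9 probes therefore stood near 0 on array 1 and below 0 on array 2.

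Hoxb6 is a middle member of the cluster, active in trunk and limb mesoderm, and its probes disagreed. Probe A_51_P232207 (chr11:96117339-96117398) read 476 and 761 in knockdown cells, against 171 and 959.6 in control cells. Its log2 ratios were 0.39 and -1.70, with a mean of -0.66 ± 1.48 (SD, n = 2), a standard error of 0.54 and a limma adjusted p of 0.529. The other probe, A_52_P648750 (chr11:96115057-96115116), which the design annotates to another transcript accession upstream, read 585 and 956 in knockdown cells, against 271 and 376 in control cells. Both log2 ratios of this probe were 0.01, so a shift of the first probe on array 2 had no counterpart in the second.

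Hoxb5, which lies next to Hoxb6 (A_51_P436342, chr11:96121906-96121965), read 238 and 251 in knockdown cells, against 108 and 252 in control cells. This gave log2 ratios of 0.30 and -1.22, a mean of -0.46 ± 1.08 (SD, n = 2), with a limma adjusted p of 0.550. As for Hoxb6 (A_51_P232207) and both Hoxb9 probes, the signs were opposite on the arrays, and the SD exceeded the size of the mean.

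Hoxb3, an anterior member active in the hindbrain, also had probes that disagreed. Probe A_52_P312467 (chr11:96163778-96163837) read 681 and 438 in knockdown cells, against 173 and 351 in control cells. This gave log2 ratios of 0.90 and -0.96, which average to -0.03 ± 1.31 (SD, n = 2). The other probe, A_51_P460643, had -0.10 and 0.15, well inside the range of the first.

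Hoxb7 and Hoxb4 did not share the drop seen on array 2 to the same extent. Hoxb7 (A_52_P194971), located between Hoxb6 and Hoxb9, read 416 and 714 in knockdown cells, against 148 and 218 in control cells. Its log2 ratios were 0.50 and 0.39, a mean of 0.45 ± 0.07 (SD, n = 2), with a standard error of 0.09, an unadjusted limma p of 0.0082 and an adjusted p of 0.161. Hoxb4 (A_52_P565957), studied for its role in blood stem cells, had log2 ratios of -0.03 and -0.39. Hoxb7 was thus higher in knockdown cells on both arrays, with little spread, but missed the threshold after adjustment.

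**Figure D3:**
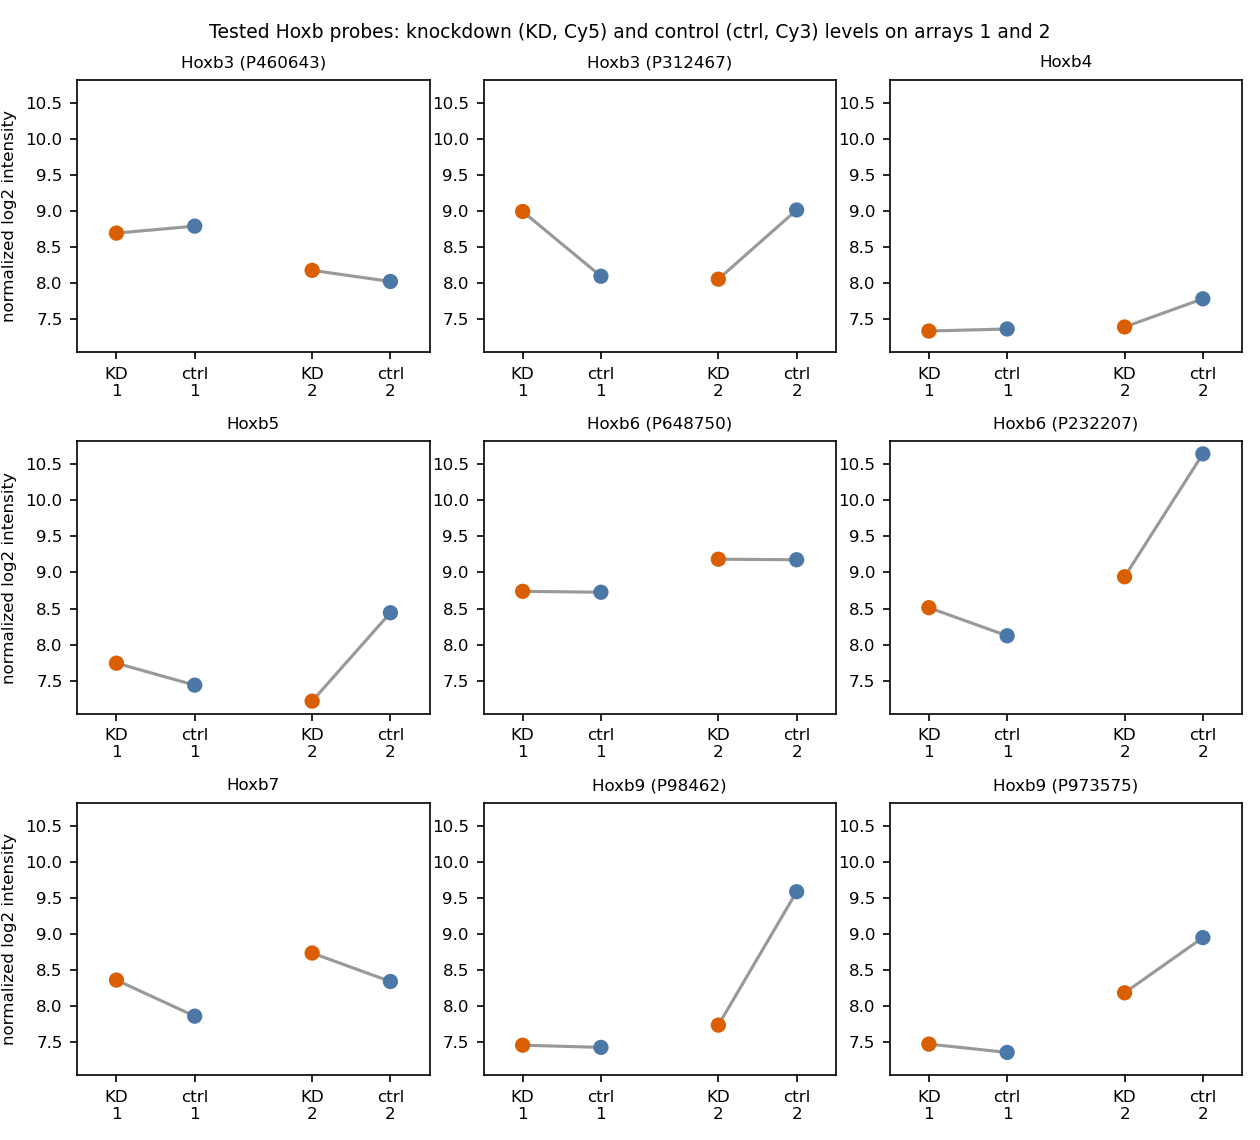
Normalized log2 intensity (vertical axis) of the 9 tested Hoxb probes, a panel per probe, in knockdown and control cells on array 1 and array 2. For Hoxb6 (A_51_P232207), Hoxb9 (A_52_P98462), Hoxb9 (A_52_P973575) and Hoxb5 (A_51_P436342) the control point is higher on array 2 than on array 1 by at least 1.00, whereas for Hoxb7 knockdown lies above control on both arrays.

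The channel levels show where the arrays parted. Levels here are log2 intensities after normalization between channels and then between arrays. Shifts are array 2 minus array 1 of the same probe. For Hoxb6 (A_51_P232207) the level shifted by 0.43 in knockdown cells and by 2.52 in control cells, and 29 of the 27006 tested probes had a larger shift in the control. For Hoxb9 (A_52_P98462) the shifts were 0.28 in knockdown cells and 2.16 in control cells, where 51 probes had a larger one. For Hoxb9 (A_52_P973575) they were 0.71 and 1.59, and 127 probes had a larger control shift. In these probes, the lower ratio on array 2 went with a brighter control channel and not with a dimmer knockdown channel.

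Hoxb5 and Hoxb3 differed from that. For Hoxb5 the shifts were -0.53 in knockdown cells and 1.00 in control cells, and for Hoxb3 (A_52_P312467) -0.94 and 0.92. Here the shifts of the channels had opposite signs. Over all tested probes, the shift ran from -0.66 to 0.60 in the knockdown channel and from -0.77 to 0.72 in the control channel (5th to 95th percentile). The knockdown shift of Hoxb5 lies inside that range. Its control shift and both shifts of Hoxb3 (A_52_P312467) lie outside. By cluster, the median shift was 0.28 in knockdown cells and 0.92 in control cells for Hoxb, -0.18 and -0.16 for Hoxa, and -0.38 and -0.65 for Hoxc. What underlies the shifts in the control channel was not tested.

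Genes that neighbour the Hoxb cluster were set beside it. Within 250 kb of the cluster, 11 tested probes of other genes had log2 ratios from -0.26 to 0.55 on array 1 and from -0.39 to 0.29 on array 2. The Hoxb ratios of -1.85, -1.70 and -1.22 on array 2 lie outside that range. One neighbouring probe, for Igf2bp1 (A_51_P497113, named after its values were seen), also changed sign between the arrays, with 0.55 on array 1 and -0.19 on array 2. The difference between Hoxb probes and neighbours was not tested.

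On array 2 the Hoxc genes leaned the other way, with log2 ratios above 0 for all 9 probes, against 52.7% of all tested probes. On array 1 it was 6 of the 9 Hoxc probes, against 53.1%. For 16 tested probes within 250 kb outside the Hoxc cluster, log2 ratios ran from -0.15 to 0.53 on array 1. On array 2 these neighbours ran from -0.26 to 0.77. The array 2 ratios of Hoxc6 (0.90) and Hoxc9 (0.81) lie above that range, and those of the other Hoxc probes lie inside it. The difference between Hoxc probes and neighbours was not tested. Hoxc10, which is active in the hindlimb and in lumbar motor neurons, had the smallest p in its cluster. Its probe A_51_P375754 (chr15:102799460-102799519) read 4277 and 3658 in knockdown cells on arrays 1 and 2, against 1429 and 914 in control cells. The log2 ratios were 0.35 and 0.59, a mean of 0.47 ± 0.17 (SD, n = 2), with a standard error of 0.10, an unadjusted limma p of 0.0124 and an adjusted p of 0.165. The second Hoxc10 probe, A_52_P351859, had -0.02 and 0.25, so the probes agreed in direction on array 2 alone.

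Hoxc6, a trunk gene of the middle of the cluster (A_51_P496245), read 9836 and 10627 in knockdown cells, against 3707 and 2127 in control cells. Its log2 ratios were 0.14 and 0.90, a mean of 0.52 ± 0.54 (SD, n = 2), with a limma adjusted p of 0.268. Hoxc9, which sets the identity of thoracic motor neurons (A_52_P346987), read 26319 and 18379 in knockdown cells, against 10357 and 3900 in control cells. The log2 ratios of Hoxc9 were -0.01 and 0.81, a mean of 0.40 ± 0.58 (SD, n = 2), with a limma adjusted p of 0.378. For both genes the difference appeared on array 2, and the mean was no larger than its SD.

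The level of Hoxc9 shifted between arrays by -0.43 in knockdown cells and by -1.25 in control cells, and that of Hoxc6 by 0.17 in knockdown cells and by -0.59 in control cells. The control shift of Hoxc9 lies outside the 5th to 95th percentile range of all tested probes, and that of Hoxc6 lies inside it. The remaining Hoxc genes varied less. Hoxc8, a gene of the thoracic trunk, had log2 ratios of 0.15 and 0.37. Hoxc13, needed for hair formation, had 0.14 and 0.26, and Hoxc5 had 0.18 and 0.20. Hoxc4 had 0.08 and 0.06, and Hoxc12 had -0.17 and 0.03. The lowest limma adjusted p among these 5 was 0.257, for Hoxc8. The probe of the transcript BC034904, which lies inside the Hoxc cluster, had 0.21 and 0.43.

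**Figure D4:**
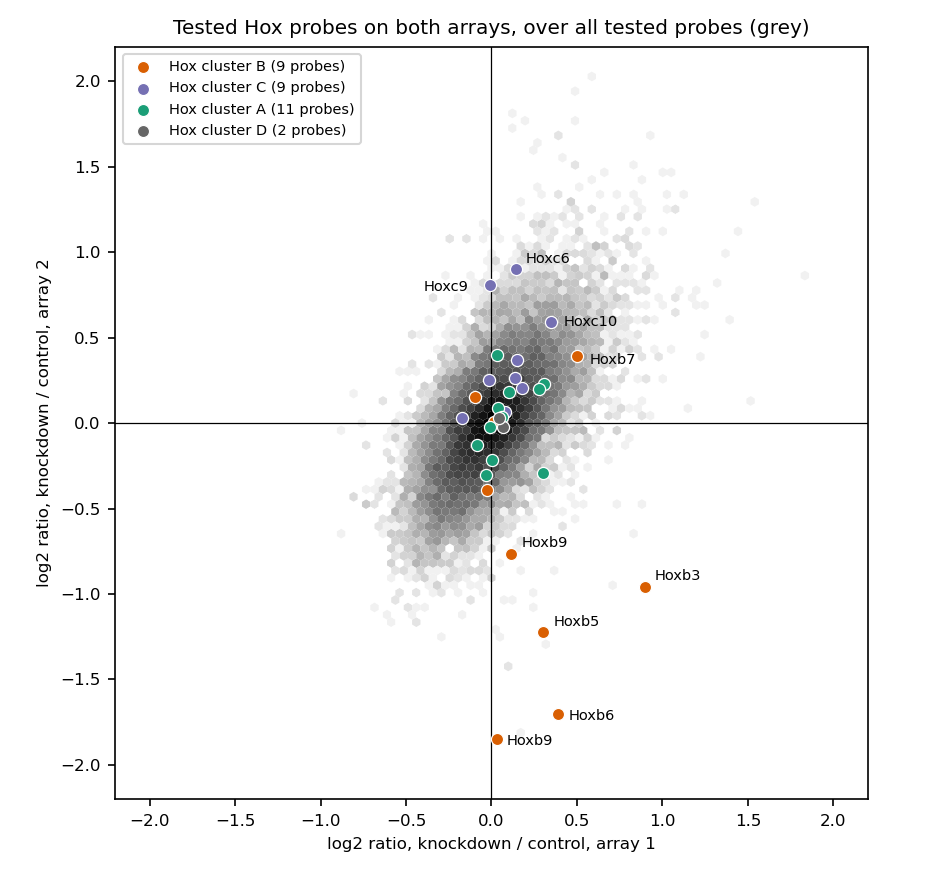
Log2 ratio of knockdown over control on array 1 (horizontal axis) against array 2 (vertical axis) for the 31 tested Hox probes, coloured by cluster, over all tested probes in grey. Hoxb9 (A_52_P98462), Hoxb6 (A_51_P232207) and Hoxb5 lie low at ratios of -1.85, -1.70 and -1.22 on array 2, within the full range of all tested probes, and Hoxc6 and Hoxc9 lie high at 0.90 and 0.81.

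In the plot of one array against the other, 5 of the 9 Hoxb probes lie apart from the other Hox points (Hoxb3 A_52_P312467, Hoxb5, Hoxb6 A_51_P232207 and both Hoxb9 probes), and the other 4 lie among them. Across all tested probes the ratios of the arrays correlated with r = 0.54 (Pearson) and rho = 0.57 (Spearman). Across the 31 Hox probes r was -0.24 and rho 0.10, and across the 22 outside Hoxb r was 0.25 and rho 0.36. These values are across probes that share 2 arrays, and they describe the arrays without a test.

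The Hoxa genes showed small differences. Hoxa5, known for its role in lung and neck, had the smallest p of the cluster. It read 662 and 622 in knockdown cells (A_51_P310821), against 243 and 217 in control cells. The log2 ratios of Hoxa5 were 0.31 and 0.23, a mean of 0.27 ± 0.06 (SD, n = 2), with an unadjusted limma p of 0.0389 and an adjusted p of 0.209. Hoxa10, a gene of the lumbar spine and the uterus (A_51_P466285), read 5156 and 6237 in knockdown cells, against 1794 and 2034 in control cells. The log2 ratios of Hoxa10 were 0.28 and 0.20 (limma adjusted p 0.232). Both were above 0 on both arrays with SDs below their means, and neither passed the test.

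Hoxa9, Hoxa11 and Hoxa7 had smaller or negative ratios. Hoxa9, active in blood progenitors and in muscle stem cells (A_51_P117924), read 4169 and 4216 in knockdown cells, against 1698 and 1551 in control cells, and its log2 ratios were 0.06 and 0.04. Hoxa11, which patterns the forearm and lower leg (A_51_P102911), had 0.00 and -0.21. Hoxa7 (A_51_P509263) read 25661 and 14817 in knockdown cells, against 10292 and 6780.2 in control cells, and had -0.03 and -0.30. All 3 stayed well within 2-fold on both arrays.

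The anterior Hoxa genes were dimmer and mixed in sign. Hoxa2, known for its role in the jaw and ear region, had log2 ratios of 0.03 and 0.40. Hoxa3, needed for the thymus and parathyroid, had 0.10 and 0.18 with one probe (A_51_P335169) and -0.01 and -0.02 with the other. Hoxa4 had -0.09 and -0.13, and Hoxa6 had 0.04 and 0.09. The lowest limma adjusted p of these anterior and middle probes was 0.389, for Hoxa2.

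Of the Hoxd cluster, the tested probes were Hoxd9 (A_51_P430728), with log2 ratios of 0.07 and -0.02, and Hoxd12 (A_51_P479406), with 0.04 and 0.03. Hoxd9 read 240.4 and 304 in knockdown cells, against 123 and 138 in control cells. Hoxd12 read 307 and 477, against 154 and 198 in control cells. Neighbours on the Hoxd side included Lnpk, a gene of the endoplasmic reticulum, whose 3 probes had -0.44, -0.38 and -0.55 on array 1 and -0.64, -0.67 and -0.67 on array 2. These log2 ratios were lower than those of both Hoxd probes on both arrays.

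The probes of 1 gene did not always agree. Of the 5 genes with 2 tested probes, Hoxa3, Hoxb3, Hoxb6, Hoxb9 and Hoxc10, the mean log2 ratios had the same sign for 2, Hoxb9 and Hoxc10. The files do not say which transcript variants each probe reads.

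Genes that act with Hox proteins or set their state were counted as lists, each gene by its brightest probe. TALE cofactors of the Pbx, Meis and Pknox families bind DNA together with Hox proteins. The list also holds the TALE corepressors Tgif1 and Tgif2. All 11 genes of the list were tested, with 0 called in limma and a median mean log2 ratio of 0.16. On both arrays 5 were above 0 and 2 below 0. The shares over all genes, each by its brightest tested probe, were 40.6% above 0 and 29.4% below 0. The same shares apply to the lists that follow. The corepressor Tgif2 had 0.10 and 1.84, and the Hox partner Meis2 had 0.16 and 0.84 (limma adjusted p 0.311 and 0.250). Both had the larger ratio on array 2.

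The Trithorax and MLL complex keeps active Hox genes active through methylation of histone H3. All 11 members were tested, with 0 called, a median of -0.11, and 3 above 0 and 5 below 0 on both arrays. Its subunit Ash2l had -0.39 and -0.44, and the H3 demethylase Kdm6a had -0.15 and -0.29. Polycomb complexes keep silent Hox genes silent. Of 27 members 26 were tested, with 0 called, a median of 0.00, and 12 above 0 and 8 below 0 on both arrays. The H3K27-binding subunit Cbx7 had 0.83 and 1.63, and the methyltransferase Ezh1 had 0.43 and 0.68 (limma adjusted p 0.158 and 0.159).

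Cdx factors and retinoic acid switch on Hox genes in the embryo. Of the 20 genes on that list 12 were tested, with 0 called, a median of 0.06, and 6 above 0 and 2 below 0 on both arrays. Cdx1, Cdx2 and Cdx4 were not among the tested. Cyp26b1, which breaks down retinoic acid, had 0.83 and 0.88, a mean of 0.86 ± 0.04 (SD, n = 2) with a limma adjusted p of 0.143. Dhrs3, which limits retinoic acid synthesis by reducing retinal, had 0.32 and 1.03. Both were higher in knockdown cells on both arrays without passing the test.

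Genes beside or inside the clusters, 15 tested of 24, had 0 called, a median of 0.00, and 5 above 0 and 6 below 0 on both arrays. Calcoco1, beside the Hoxc cluster, had 0.53 and 0.77, and Lnpk, beside Hoxd, is given above. Other homeobox and T-box genes of limb and trunk, 22 tested of 36, had 0 called, a median of 0.03, and 8 above 0 and 7 below 0 on both arrays. Hhex, a homeobox gene best known from liver and blood vessels, had 0.25 and 1.01. The medians of all 6 lists lay between -0.11 and 0.16, against 0.03 over all genes, each by its brightest tested probe. At an unadjusted limma p under 0.05, of 26 tested Polycomb genes 6 were higher and 1 lower, and of 22 limb and trunk genes 5 and 1. Of 12 Cdx and retinoic acid genes 2 were higher and 1 lower, and of 15 genes beside the clusters 2 and 2. Of 11 Trithorax genes 0 were higher and 1 lower, and of 11 TALE genes 0 and 0. Over all tested probes the shares were 12.7% higher and 9.09% lower. These shares count every probe of a gene, whereas the lists count 1 probe per gene. A share over genes was not computed at this threshold, so the units differ.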

How the data were processed

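Both channels of 2 arrays were analysed. Per the file headers, Agilent Feature Extraction 9.5.3.1 read the images, and mean and background intensity values were deposited for each spot, with processed intensity values and a log10 ratio of Cy5 over Cy3. The deposited value table held log2 ratios that equal this log10 ratio, rescaled to log2, to within 0.001 in 99.4% of the filled probes per array, and both columns had a median of 0. How missing values of that table were chosen is not given in the sources used here.

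Intensities were corrected with normexp (offset 50) and normalized by loess within arrays (span 0.3) in limma 3.58.1, with control spots at weight 0. Spots with outlier flags were left out, 154 on array 1 and 237 on array 2, of which 2 and 0 were Hox spots. Spots of a probe were averaged. A probe was tested where at least 50% of its spots had the scanner's flag for signal well above background, in 1 channel or both, on each array. Log2 ratios of knockdown over control were tested against 0 with lmFit and eBayes (two-sided, Benjamini-Hochberg over all tested probes, adjusted p 0.05). Channel levels were taken after Aquantile normalization. The pipeline was tested on simulated data. Of all probes, 23374 were named by accession, 6733 by symbol and 2919 by synonym in the RefSeq gene table of GRCm38.p6, and 8148 kept the file's name. All Hox probes enter the counts, 1 Hox gene and 2 genes of the lists are not reported here by value, and from each list the 2 tested genes with the largest mean ratio in size, plus Mybbp1a, are named. Genes and transcripts beside a cluster are given in addition. The members and lists were chosen with earlier results of these data known. Probe sequences and mm8 coordinates are those of the array files. The array number limits the precision.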

Additional observations from a re-analysis of the deposited data

How the results depend on the processing

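No further pairing was possible, because there is 1 contrast and the main fit already uses the ratio of knockdown over control within each array. The number of Hox probes called was 0 in every setting run except median centring, which called 4 (limma adjusted p 0.0282 to 0.0464), and put the median of all Hox probes at 0.18, against 0.04 with loess, and that of Hoxa at 0.17, against 0.05. Under it 61.9% of all tested probes were above 0 and 14.6% below 0 on both arrays, against 37.9% and 32.1% with loess. Feature Extraction's own log ratio gave a Hox median of -0.0053, a Hoxa median of -0.0053 and a Hoxc median of 0.29, and the values the authors deposited gave 0.0059, -0.0053 and 0.33 in that order, against 0.20 for Hoxc in the main setting. The Hoxa median was 0.042 with an offset of 10, 0.057 with no filter on dim probes, 0.027 with the brightest probe per gene and 0.056 as the mean over probes. With no filter, 9 Hox probes were below 0 on both arrays, against 4. With 1 array left out in turn, the count 2-fold lower was 0 to 3, the count above 0 was 19 to 23 and below 0 was 8 to 12, the detected probes were 31 to 40, and the medians were 0.035 to 0.069 for Hox, 0.035 to 0.040 for Hoxa, -0.76 to 0.11 for Hoxb and 0.14 to 0.26 for Hoxc. A single array has no spread, so these are values with no test. The Hoxb median of -0.21 therefore rests on array 2, as it is 0.11 without replicate 2 and -0.76 without replicate 1. It was -0.031 with no filter, -0.34 with the authors' deposited values and -0.33 with the brightest probe per gene, and it stayed between -0.27 and -0.16 under the other settings that use both arrays. Counting spots by the positive and significant flag gave 38 detected Hox probes. On array 2, over the alternatives, Hoxb9 (A_52_P98462) ran from -2.32 to -1.66, Hoxb6 (A_51_P232207) from -1.97 to -1.47, Hoxb5 from -1.76 to -1.13 and Hoxb3 (A_52_P312467) from -1.30 to -0.78. The causes of these changes were not tested.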
